A study of Rattus norvegicus with 24 samples.

Results

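The genes described here are the drug and steroid metabolism enzymes on the array: cytochromes P450 (Cyp), UDP-glucuronosyltransferases (Ugt), glutathione S-transferases (Gst), sulfotransferases (Sult), hydroxysteroid dehydrogenases (Hsd), flavin monooxygenases (Fmo) and aldehyde dehydrogenases (Aldh). Members were taken by symbol, from probes that carried a single gene symbol with one of these family names, with Cyp7b1 left out. This gave 81 genes on 88 probes, of 6455 genes with such probes. The families held 33 Cyp, 5 Ugt, 10 Gst, 8 Sult, 12 Hsd, 3 Fmo and 10 Aldh genes. A further 7 family probes that carried several symbols were not used. RNA came from mesenteric arteries, the small arteries that supply the gut, of 12 ovariectomised female Sprague Dawley rats. The groups were 4 rats given estradiol benzoate, an estrogen ester, at 0.15 mg per kg per day, 4 given testosterone at 1 mg per kg per day, and 4 given the sesame oil vehicle. In every group the ovaries were removed at 3 weeks of age, 2 weeks of recovery followed, the injections into the peritoneum ran for 4 days, and the rats were 5.5 weeks old. Each rat's cRNA was read on 2 one-colour CodeLink arrays, and a level below is the mean log2 intensity of both.

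Enzymes of these families work in sequence. Cytochromes P450, flavin monooxygenases and dehydrogenases oxidise or reduce a drug, steroid or aldehyde, and transferases then attach sulfate, glucuronic acid or glutathione so that the product can leave the cell. The liver holds the highest levels of many of them, while blood vessels are known to hold a smaller set that handles estrogens, glucocorticoids, fatty acids, retinoids and reactive aldehydes on site.

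The 24 arrays had medians between 0.926 and 0.951 intensity units, so a log2 level near 0 is that of a middling probe. Duplicate arrays of a rat correlated across probes with r between 0.976 and 0.993. Tests covered the 10228 of 10399 probes that were measured in 3 or more rats of every group. The brightest measured smooth muscle gene, Cnn1, lay between 4.82 and 5.57 on the log2 scale. Pecam1, the brightest endothelial gene, lay between 4.55 and 5.09. Of 5 smooth muscle and 9 endothelial genes measured, Tpm1 (-0.54), Edn1 (-0.68), Ace (-1.27) and Kdr (-2.38) had means below 0. The other genes of both lists had means above 0. The fat cell gene Adipoq was also bright, between 4.31 and 4.91. Of 14 measured hepatocyte markers the summed intensity was 3.58 to 4.19 with estradiol benzoate, 3.17 to 3.74 with testosterone and 3.33 to 39.5 with vehicle. Vehicle animal 5 held that highest sum, followed by vehicle animal 3 with 8.29 and vehicle animal 4 with 5.93. Of 11 measured pancreatic acinar markers, estradiol benzoate animal 3 had a sum of 118.0, against at most 5.61 in any other rat. Both animals stand apart before any member is considered, and values without them are given where they matter. Less RNA per cell and fewer cells of a type cannot be told apart in whole arteries.

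All 81 genes were tested, through 86 of the 88 probes. For the 7 genes with a pair of probes, the brighter one stands for the gene unless stated. Textbook knowledge of rat liver put 25 genes in a liver-restricted class. Of the others, 28 had a mean level at or above the median of all tested probes (-0.10) and are called artery-expressed, and 28 lay below it. Cyp4b1 (-0.06) was just above that level and Ugt1a6 (-0.17) just below it. The liver-restricted class rests on textbook knowledge and not on these levels. Its genes Gsta1 (2.65), Gsta2 (1.86) and Cyp2a1 (0.23) also had means above the median. The artery-expressed genes included 8 of the 10 Aldh genes, 6 of the 10 Gst genes and 7 of the 33 Cyp genes. The liver-restricted class had first taken 0 Aldh, 2 Gst and 13 Cyp genes, and 2, 2 and 13 were low. By definition the median splits all tested probes evenly. At the other end, 15 genes stayed under 0.1 intensity units in all 12 rats, a log2 level of -3.32. Among them were the estrogen-making genes Cyp19a1 (aromatase) and Hsd17b1 and the testis enzyme Hsd17b3, which makes testosterone.

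The first question was whether estradiol benzoate changed the levels of these enzymes. By limma with Benjamini-Hochberg adjustment over all probes, 0 members passed an adjusted p under 0.05 in estradiol benzoate minus vehicle, where 0.0% of all probes passed. The smallest adjusted p among members was 0.129. At an unadjusted p under 0.05, 9 member probes were higher and 6 lower, or 10.5% and 6.98% of the 86, against 6.77% and 6.69% of all probes. In 7 member probes every estradiol benzoate rat lay above every vehicle rat, 8.14% against 3.53% of all probes, and in 1 every one lay below, 1.16% against 4.29%. The share was above that of all probes on the higher side and close to it or below it on the lower side. Over the 81 genes the median log2 difference was -0.00, against -0.01 over all probes. It was -0.21 for the liver-restricted, -0.00 for the artery-expressed and 0.08 for the low genes.

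The phenol sulfotransferase Sult1a1, which attaches sulfate to phenols, catecholamines and estrogens, had the smallest p of all members. Its levels were 2.89, 2.86, 2.71 and 3.18 with estradiol benzoate, 2.06, 2.27, 2.53 and 2.46 with testosterone, and 1.91, 2.02, 2.45 and 2.37 with vehicle. All 4 estradiol benzoate rats lay above the other 8, while testosterone and vehicle rats overlapped. The log2 difference was 0.72 ± 0.15 (SE, 4 rats per group) for estradiol benzoate minus vehicle, a 1.65-fold ratio, with an adjusted p of 0.129 by limma. It was 0.58 ± 0.15 for estradiol benzoate minus testosterone (adjusted p = 0.571, limma) and 0.14 ± 0.15 for testosterone minus vehicle (adjusted p = 0.699, limma). Of all tested probes 0.538% had every estradiol benzoate rat above both other groups, and among members Sult1a1 was the 1 such gene (1.16%).

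Cyp4b1, a monooxygenase of fatty acids and of foreign compounds that is best known from rodent lung, had levels of 0.40, 0.48, 0.11 and 0.70 with estradiol benzoate, -0.32, -0.58, -0.23 and 0.21 with testosterone, and -0.56, -0.51, -0.33 and -0.14 with vehicle. Estradiol benzoate and vehicle rats did not overlap, whereas testosterone animal 8 lay above the lowest estradiol benzoate rat. The log2 difference was 0.81 ± 0.17 for estradiol benzoate minus vehicle (1.75-fold, adjusted p = 0.133, limma) and 0.66 ± 0.17 for estradiol benzoate minus testosterone (adjusted p = 0.571, limma). Fmo2, the lung type flavin monooxygenase that oxygenates nitrogen and sulfur in drugs, had levels of -0.08, -0.20, -0.41 and 0.09 with estradiol benzoate, -0.89, -0.78, -0.24 and -0.40 with testosterone, and -0.90, -0.98, -0.73 and -0.78 with vehicle. Every estradiol benzoate rat was above every vehicle rat, and the testosterone rats fell in a lower and a higher pair that reached both. The log2 difference was 0.70 ± 0.15 for estradiol benzoate minus vehicle (1.62-fold, adjusted p = 0.14, limma), and 0.43 ± 0.15 for estradiol benzoate minus testosterone. Its relative Fmo1 showed 1.36, 1.49, 0.25 and 1.63 with estradiol benzoate, 0.85, 0.32, 0.86 and 1.41 with testosterone, and 0.39, 0.57, 1.03 and 0.39 with vehicle. Estradiol benzoate animal 5 was the lowest of all 12 rats for Fmo1 and the other 3 were high, so the groups overlapped (0.59 ± 0.31, adjusted p = 0.414, limma).

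**Figure D1:**
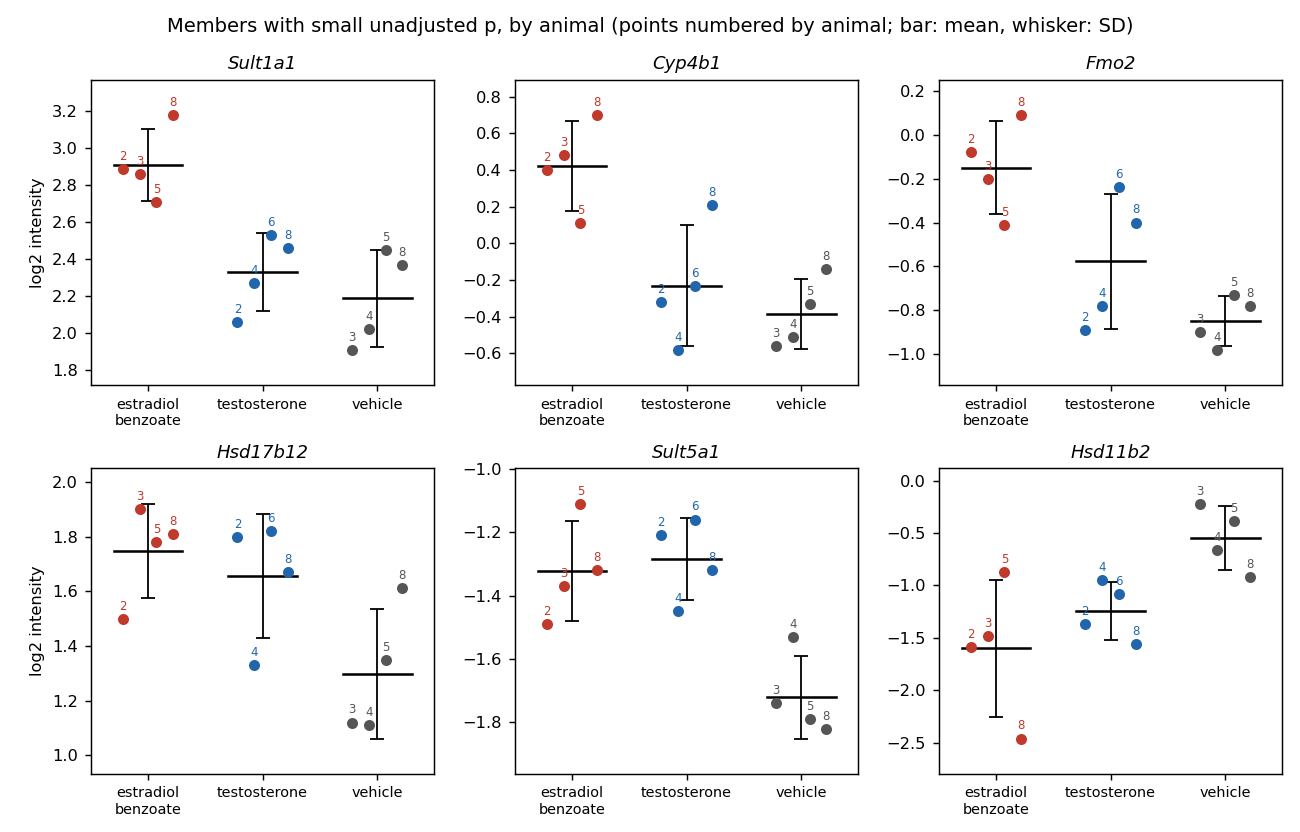
Log2 intensity by rat for Sult1a1, Cyp4b1, Fmo2, Hsd17b12, Sult5a1 and Hsd11b2, with points numbered by animal, a bar at the group mean and whiskers of 1 SD (4 rats per group). The estradiol benzoate points of Sult1a1 (2.71 to 3.18) lie above all others, and for Sult5a1 both hormone groups lie above vehicle.

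Because Sult1a1, Cyp4b1 and Fmo2 were the 3 members with the smallest p for estradiol benzoate, the 250 bases before their annotated starts are shown, from RefSeq promoters of the rat build GRCr8, all on the minus strand. Capitals mark the estrogen receptor half-site AGGTCA, searched on both strands (TGACCT on the other), and no other motif was searched. Sult1a1 lies at chr1:190706113-190706362, Cyp4b1 at chr5:134393117-134393366 and Fmo2 at chr13:77777535-77777784.
Sult1a1: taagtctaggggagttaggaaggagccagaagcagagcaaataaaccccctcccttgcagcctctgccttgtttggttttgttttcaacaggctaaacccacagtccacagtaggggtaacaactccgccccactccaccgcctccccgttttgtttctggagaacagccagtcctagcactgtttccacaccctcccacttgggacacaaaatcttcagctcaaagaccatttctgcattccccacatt
Cyp4b1: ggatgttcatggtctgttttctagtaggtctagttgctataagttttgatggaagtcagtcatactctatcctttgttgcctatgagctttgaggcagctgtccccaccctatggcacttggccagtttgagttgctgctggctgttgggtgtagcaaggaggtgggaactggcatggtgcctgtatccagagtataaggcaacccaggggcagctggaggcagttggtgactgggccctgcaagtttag
Fmo2: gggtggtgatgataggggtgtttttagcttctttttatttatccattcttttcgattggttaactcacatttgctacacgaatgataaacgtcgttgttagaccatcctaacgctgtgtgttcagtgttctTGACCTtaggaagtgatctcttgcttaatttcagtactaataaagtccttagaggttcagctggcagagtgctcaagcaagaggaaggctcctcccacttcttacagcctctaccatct
The half-site letters occurred 1 time, in Fmo2, starting at position -119 from the start, and not in the windows of Sult1a1 or Cyp4b1. Promoters were on hand for 62 of the 81 genes, and 14 of them (22.6%) held the letters, against 4707 of 33469 rat promoters in the table (14.1%). A match of 6 letters describes the sequence and is not a binding site.

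The mean level of fat cell markers was also higher in every estradiol benzoate rat than in every vehicle rat. Of 24 listed white fat genes 14 were measured, with a mean level relative to the average of all rats of 0.01 to 0.33 with estradiol benzoate, -0.23 to 0.20 with testosterone and -0.42 to -0.03 with vehicle. Their summed intensity was 171.0 to 214.0, 146.0 to 184.0 and 129.0 to 162.0 in these groups. Mean log2 levels of the 14 ran from -0.79 (Lipe) to 4.89 (Fabp4). At an unadjusted p under 0.05 by limma, 8 of the 14 were higher with estradiol benzoate than with vehicle. The part of fat RNA in the values of Sult1a1, Cyp4b1 and Fmo2 was not tested. For estradiol benzoate minus vehicle 13 of the 14 differed by 0.11 to 0.86 and Adipoq by -0.08. Smooth muscle and endothelial sums overlapped between the groups, at 46.9 to 63.2, 48.0 to 61.9 and 53.3 to 70.2 for 5 smooth muscle genes and at 50.3 to 63.6, 56.6 to 71.3 and 59.2 to 68.8 for 9 endothelial genes. The summed and mean levels of fibroblast genes did not overlap between estradiol benzoate and vehicle. Of 12 listed 6 were measured, with summed intensities of 51.2 to 96.7 with estradiol benzoate (the lowest from animal 5, which had no value for Col1a1), 87.6 to 118.0 with testosterone and 107.0 to 132.0 with vehicle. Their mean level relative to all rats was -0.53 to 0.05, -0.34 to 0.31 and 0.17 to 0.24. Of the 6, 2 (Dpt and Mfap5) were lower with estradiol benzoate at an unadjusted p under 0.05, without overlap. Col1a1, Lum, Pi16 and Dpep1 overlapped between these groups, and Dpt ranged from -2.67 to 1.73 over all rats. The part of the fibroblast genes' cells in the members' values was not tested.

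Testosterone was compared with the same vehicle rats, so its differences share their values. In testosterone minus vehicle 0 members passed an adjusted p under 0.05 by limma, where 0.0489% of all probes did. At an unadjusted p under 0.05, 9 member probes were higher and 9 lower (10.5% each), against 6.62% and 7.43% of all probes. Groups did not overlap in 1 member on the higher side (Sult5a1, 1.16% against 2.45% of all probes) and in 2 on the lower side (Cyp2c6v1 and Hsd11b2, 2.33% against 3.14%). The median log2 difference over the 81 genes was 0.06, with -0.00 for liver-restricted, 0.06 for artery-expressed and 0.09 for low genes.

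Several members differed from vehicle by about the same amount with both hormones, set against the same 4 vehicle rats. The sulfotransferase Sult5a1 stood at -1.49, -1.37, -1.11 and -1.32 with estradiol benzoate, -1.21, -1.45, -1.16 and -1.32 with testosterone, and -1.74, -1.53, -1.79 and -1.82 with vehicle. All 8 hormone-treated rats lay above all 4 vehicle rats. Its log2 differences were 0.40 ± 0.11 (adjusted p = 0.191, limma; 0.15 on the AA and 0.65 on the AB arrays alone) and 0.43 ± 0.11 (adjusted p = 0.187, limma). Lymphocyte markers followed the same split: of 16 listed 10 were measured, and their mean level relative to all rats was -0.09 to 0.44 with estradiol benzoate, -0.05 to 0.31 with testosterone and -0.57 to -0.16 with vehicle. Their summed intensities overlapped, at 11.6 to 24.5, 14.4 to 20.5 and 13.1 to 19.3, and Cd4, Cd8a, Cd8b and Ccr7 were under 0.1 intensity units in all rats. At an unadjusted p under 0.05 by limma, 6 of the 10 were higher with estradiol benzoate and 4 with testosterone, and their part in the members' values was not tested. Cyp4a8, a fatty acid omega-hydroxylase, had -2.76, -2.76, -2.93 and -2.77 with estradiol benzoate, -2.64, -2.56, -2.81 and -3.05 with testosterone, and -3.29, -3.02, -3.51 and -3.15 with vehicle. Estradiol benzoate and vehicle rats did not overlap, and testosterone animal 8 fell below the highest vehicle rat. The Cyp4a8 differences were 0.44 ± 0.13 and 0.48 ± 0.13, or 0.24 and 0.22 on the AA and 0.64 and 0.65 on the AB arrays alone. Sult2b1, which sulfates cholesterol and pregnenolone, differed by 1.10 and 1.11, but all 12 rats were under 0.1 intensity units and both differences were 0.00 once values under 0.1 were set to 0.1.

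Hsd17b12 acts in the elongation of very long fatty acids and can reduce estrone to estradiol. Its levels were 1.50, 1.90, 1.78 and 1.81 with estradiol benzoate, 1.80, 1.33, 1.82 and 1.67 with testosterone, and 1.12, 1.11, 1.35 and 1.61 with vehicle. Vehicle animal 8 lay within both hormone groups, testosterone animal 4 was level with vehicle animal 5, and vehicle animals 3 and 4 were below all others. The differences were 0.45 ± 0.15 (adjusted p = 0.271, limma) and 0.36 ± 0.15 (adjusted p = 0.324, limma). Ugt2b1, a steroid and phenol glucuronidating enzyme of rat liver, differed by 0.34 ± 0.13 and 0.36 ± 0.13, or 0.21 and 0.23 on the AB arrays alone, with vehicle animal 4 (-0.77) inside both hormone groups. Ugt8, which builds the galactolipids of myelin, had -0.96, -1.40, -0.86 and -0.67 with testosterone and -1.65, -1.55, -1.48 and -1.31 with vehicle. Testosterone animal 4 lay inside the vehicle range (0.52 ± 0.21, adjusted p = 0.318, limma).

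The pair of 11-beta-hydroxysteroid dehydrogenases sets how much active glucocorticoid a cell sees: Hsd11b1 regenerates corticosterone and Hsd11b2 inactivates it. Hsd11b2 had -1.59, -1.48, -0.87 and -2.46 with estradiol benzoate, -1.37, -0.95, -1.08 and -1.56 with testosterone, and -0.22, -0.66, -0.39 and -0.92 with vehicle. Estradiol benzoate animal 8 was the lowest rat and animal 5 lay just inside the vehicle range, while all testosterone rats were below all vehicle rats. The differences were -1.05 ± 0.29 (0.481-fold, adjusted p = 0.195, limma) and -0.69 ± 0.29 (0.619-fold, adjusted p = 0.324, limma). A dimmer second probe of Hsd11b2 gave -0.38 ± 0.24 (-0.18 without estradiol benzoate animal 8 and -0.06 with values under 0.1 set to 0.1) and 0.01 ± 0.24, so the probes disagreed for testosterone. Hsd11b1 was artery-expressed, at 2.37 ± 0.23, 2.35 ± 0.22 and 2.42 ± 0.37 (SD, 4 rats each) with estradiol benzoate, testosterone and vehicle, and differed by -0.05 ± 0.19 and -0.07 ± 0.19.

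Other genes of steroid handling showed lower values with testosterone at low levels. Hsd17b3 differed by -0.89 ± 0.30 (adjusted p = 0.273, limma) and Hsd17b7, which acts in cholesterol synthesis and reduces estrone, by -0.31 ± 0.13 (adjusted p = 0.324, limma). Both were under 0.1 intensity units in every rat, and both differences were 0.00 with values under 0.1 set to 0.1. Hsd3b7, a bile acid synthesis enzyme, was artery-expressed and had 0.90, 0.78, 0.69 and 0.91 with testosterone and 0.40, 0.50, 0.77 and 0.75 with vehicle. The groups overlapped and the difference was 0.22 ± 0.10 (adjusted p = 0.355, limma).

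The retinoid enzymes were measured on both sides of the pathway. Aldh1a2, which makes retinoic acid, had 0.56, 0.69, 0.33 and 0.42 with testosterone and 1.04, 0.69, 1.10 and 0.55 with vehicle. Cyp26b1, which breaks retinoic acid down, had 0.43, 0.17, -0.79 and -0.28 with testosterone and 0.50, 0.41, 0.57 and 0.08 with vehicle. In both genes the groups overlapped. The differences for testosterone minus vehicle were -0.35 ± 0.16 for Aldh1a2 and -0.51 ± 0.23 for Cyp26b1, both with an adjusted p of 0.355 by limma, and that of Cyp26b1 was -0.29 without testosterone animal 6. For estradiol benzoate minus vehicle they were -0.28 ± 0.17, with 1 estradiol benzoate rat missing for Aldh1a2, and -0.24 ± 0.23. Aldh1a1, which also makes retinoic acid, differed in the other direction, by 0.09 ± 0.19 for estradiol benzoate and 0.16 ± 0.19 for testosterone minus vehicle.

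Estradiol benzoate was also set against testosterone directly. In estradiol benzoate minus testosterone 0 members passed by limma, where 0.0293% of all probes did, and the smallest adjusted p was 0.571. At an unadjusted p under 0.05, 4 member probes were higher (Sult1a1, Cyp4b1, Fmo2 and Hsd17b7) and 2 lower (Cyp2c11 and Cyp8b1), 4.65% and 2.33% against 2.41% and 1.71% of all probes. Groups did not overlap in 1 member on the higher side (1.16% against 1.88%) and in 0 on the lower side (0.0% against 1.17%). Cyp2c11, the male-specific P450 of rat liver, had -2.74, -3.31, -2.72 and -2.81 with estradiol benzoate and -2.37, -2.32, -2.75 and -2.35 with testosterone. Estradiol benzoate animal 3 was low, testosterone animal 6 lay inside the estradiol benzoate range, and the difference was -0.44 ± 0.16 (adjusted p = 0.999, limma). Cyp8b1, which sets the kind of bile acid made, was under 0.1 intensity units throughout, with a difference of -0.66 ± 0.28, or -0.36 without estradiol benzoate animal 3 and 0.00 with values under 0.1 set to 0.1. A test for any difference among the 3 groups also passed 0 members, where 0.00978% of all probes passed, and 15 member probes (17.4%, against 11.9% of all probes) had an unadjusted p under 0.05 by limma's moderated F test.

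**Figure D2:**
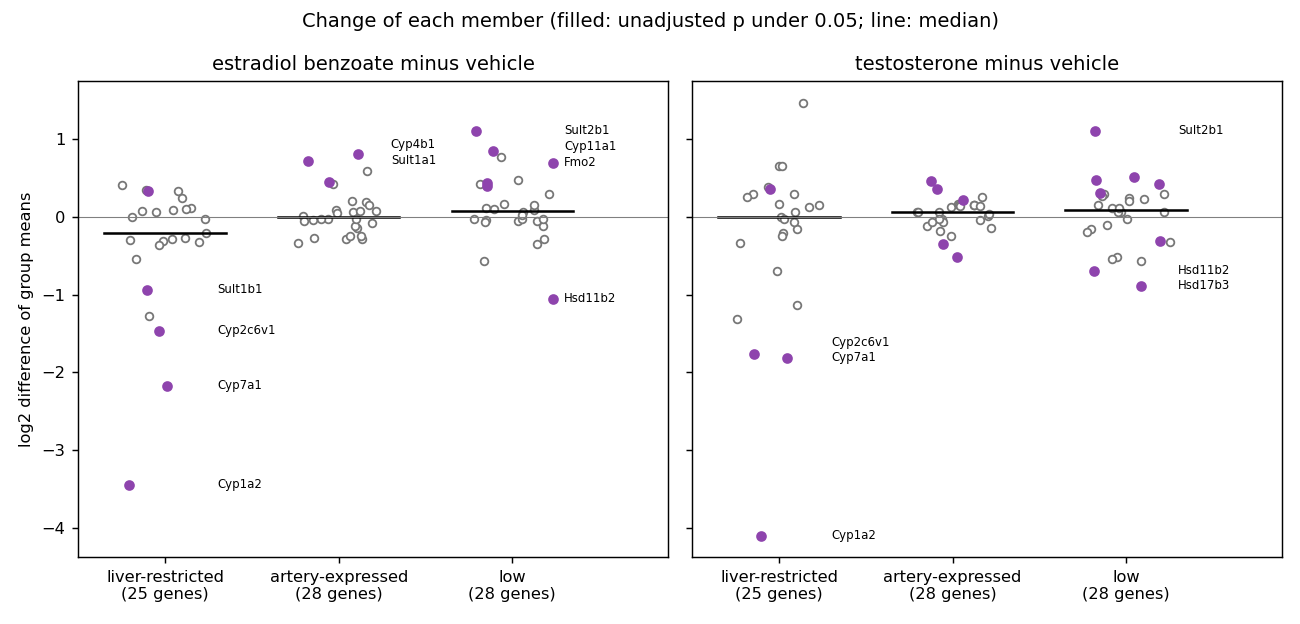
Log2 difference of group means for each of the 81 genes, by class, for estradiol benzoate minus vehicle (left) and testosterone minus vehicle (right), with filled points for an unadjusted p under 0.05 and a line at the class median. Both panels share the vehicle rats; the liver-restricted class reaches -3.45 and -4.10 at Cyp1a2, while the artery-expressed genes stay between -0.51 and 0.81.

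Of the 5 brightest artery-expressed genes, Sult1a1 and Hsd11b1 are given above, and the other 3 differed little between groups. Gstp1, the main glutathione transferase of many non-hepatic tissues, stood at 3.94 ± 0.14 with estradiol benzoate, 3.90 ± 0.21 with testosterone and 3.75 ± 0.24 with vehicle (SD, 4 rats each). Aldh3a2, which oxidises fatty aldehydes, stood at 2.74 ± 0.05, 2.71 ± 0.12 and 2.77 ± 0.18 in these groups, and Gstz1, an enzyme of tyrosine breakdown, at 2.25 ± 0.13, 2.31 ± 0.32 and 2.33 ± 0.11. Their differences from vehicle lay between -0.08 and 0.19, each within about 1 SD of a group. Aldh6a1, an enzyme of valine breakdown, differed by 0.07 ± 0.17 and 0.06 ± 0.17. Aldh18a1, the first enzyme of proline synthesis, had 0.99, 1.22, 1.22 and 0.83 with estradiol benzoate and 1.56, 1.25, 1.44 and 1.14 with vehicle. These groups overlapped through vehicle animal 8 (-0.28 ± 0.13, adjusted p = 0.372, limma). The theta class glutathione transferases differed in opposite directions: Gstt2 by 0.43 ± 0.21 and 0.46 ± 0.21, and Gstt3 by -0.24 ± 0.12 and -0.25 ± 0.12, for estradiol benzoate and testosterone minus vehicle, none of which passed. Cyp1b1, which hydroxylates estradiol in vessels, stood at 0.44 ± 0.12, 0.54 ± 0.11 and 0.49 ± 0.12.

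For a pair of steroid-making enzymes 1 rat stood far above the rest. Cyp11a1, which cuts the side chain of cholesterol to start steroid synthesis, had -1.35, 0.32, -1.53 and -1.72 with estradiol benzoate, -1.15, -1.79, -1.66 and -2.14 with testosterone, and -1.84, -2.04, -1.76 and -2.03 with vehicle. Hsd3b2, the next enzyme, had -2.03, -0.05, -3.51 and -3.79 with estradiol benzoate, -2.50, -3.26, -4.01 and -4.00 with testosterone, and -2.80, -2.94, -3.01 and -3.71 with vehicle. Estradiol benzoate animal 3 was the highest of 12 for both genes, by over 1 log2 unit, and for Cyp11a1 the other 3 rats of its group lay just above all vehicle rats. With it, Cyp11a1 differed by 0.85 ± 0.38 for estradiol benzoate minus vehicle and Hsd3b2 by 0.77 ± 0.69, and without it they differed by 0.38 and 0.00. It is also the animal with the high pancreatic markers, whose part was not tested. Of 13 listed adrenal and gonadal genes 7 were measured, 4 of them besides Cyp11a1, Hsd3b2 and the aromatase gene, which was under 0.1 intensity units in every rat. The summed intensity of all 7, Cyp11a1 and Hsd3b2 included, was 5.36 to 8.3 with estradiol benzoate, highest in animal 3, 5.17 to 6.18 with testosterone and 4.56 to 6.09 with vehicle. Cyp17a1, the androgen-making P450, had 1.41, 1.17, 1.04 and 1.18 with estradiol benzoate, and Cyp21a1, the adrenal 21-hydroxylase, had -0.85, -1.23, -1.30 and -1.21. Scarb1, which takes up lipoprotein cholesterol, had 1.66, 1.65, 1.15 and 1.43. For these 3 genes and for Inha and the aromatase gene, estradiol benzoate animal 3 was not the highest of its group. A second Cyp17a1 probe had values in only 2 estradiol benzoate rats and was not tested. Its values lay between -7.39 and -4.04, all under 0.1 intensity units, so the probes disagreed in level. The first probe lay between 0.84 and 1.41 in all rats.

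**Figure D3:**
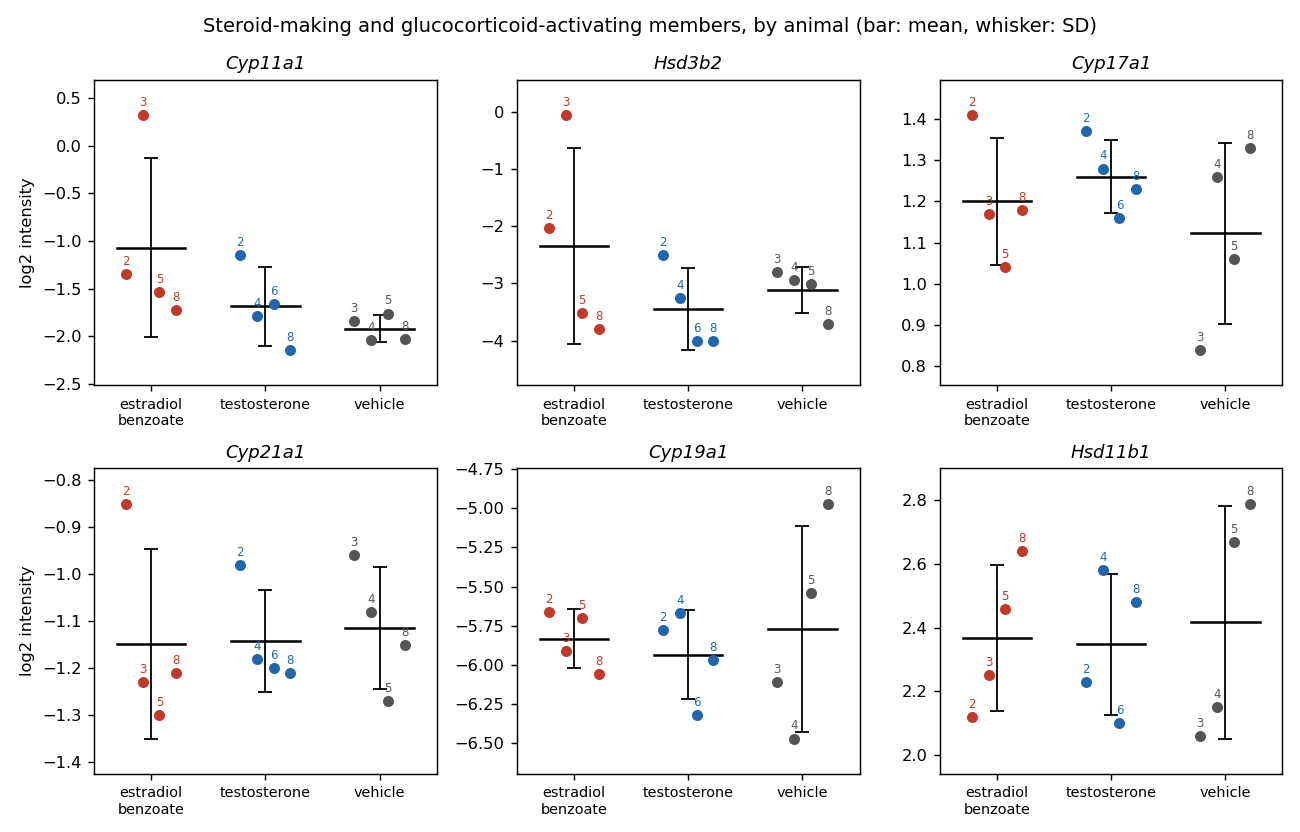
Log2 intensity by rat for the steroid-making genes Cyp11a1, Hsd3b2, Cyp17a1, Cyp21a1 and Cyp19a1 and the glucocorticoid-activating Hsd11b1, with points numbered by animal, a bar at the mean and whiskers of 1 SD (4 rats per group). Estradiol benzoate animal 3 stands alone at 0.32 for Cyp11a1 and -0.05 for Hsd3b2, and is within its group for the others.

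Liver-restricted genes had the largest differences and the largest spread. Cyp1a2, which oxidises aromatic amines and hydroxylates estradiol, had -6.06, -5.11, -4.82 and -5.23 with estradiol benzoate, -6.73, -4.74, -6.12 and -6.23 with testosterone, and -1.58, -2.56, 1.76 and -5.06 with vehicle. Vehicle animals 3, 4 and 5 were above all 8 hormone-treated rats, and vehicle animal 8 was among them. The differences were -3.45 ± 1.08 (adjusted p = 0.252, limma) and -4.10 ± 1.08 (adjusted p = 0.21, limma), -2.24 and -2.89 without vehicle animal 5, and -1.90 each with values under 0.1 set to 0.1. Cyp7a1, the rate-limiting enzyme of bile acid synthesis, had -6.36, -6.04, -7.47 and -5.98 with estradiol benzoate, -5.48, -4.96, -5.96 and -8.06 with testosterone, and -4.06, -4.72, -2.15 and -6.25 with vehicle. Here too the same 3 vehicle rats were high and vehicle animal 8 was low. The differences were -2.17 ± 0.83 and -1.82 ± 0.83, -1.45 and -1.11 without vehicle animal 5, and -0.29 each with the floor of 0.1.

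Cyp2c6v1, a drug-oxidising P450 of rat liver, had -1.83, -1.80, -0.88 and -0.99 with estradiol benzoate, -1.64, -2.55, -1.08 and -1.36 with testosterone, and -0.32, -0.85, 2.40 and -0.82 with vehicle. All vehicle rats lay above all hormone-treated rats, although the margin to the lower 3 was small. The differences were -1.47 ± 0.63 (adjusted p = 0.34, limma) and -1.76 ± 0.63 (adjusted p = 0.293, limma), and -0.71 and -1.0 without vehicle animal 5. Cyp2e1, which oxidises ethanol, ranged widely in every group, with -1.50, 0.31, -1.64 and 0.79 with estradiol benzoate, -3.21, -0.45 and 0.36 in 3 testosterone rats (animal 2 had no value), and 0.25, -0.58, 2.99 and -2.53 with vehicle. Its differences were -0.54 ± 1.14 and -1.13 ± 1.23, and without vehicle animal 5 the first turned to 0.44 and the second was -0.15. Ugt2b10 and Sult1b1, both under 0.1 intensity units in all rats, differed by -1.27 and -0.94 for estradiol benzoate minus vehicle, or -0.64 and -0.76 without vehicle animal 5, and by -0.02 and -0.07 with the floor of 0.1.

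Vehicle animal 5 was the highest of the 12 rats in 9 of the 25 liver-restricted genes (36.0%), against 12.1% of all probes. It was over 1 log2 unit above the next rat in 5 of them (20.0%; Cyp1a2, Cyp2c6v1, Cyp2e1, Cyp7a1 and Ugt2b10), against 1.11% of all probes, and in 0 of the 28 artery-expressed and 0 of the 28 low genes. Vehicle animal 5 was also highest in 6 of the 28 artery-expressed genes (21.4%) and 4 of the 28 low genes (14.3%). Fmo5 was one of the 9 liver-restricted genes, at -1.95 in vehicle animal 5, and lay between -2.59 and -2.02 in all other rats. The mean of the 14 hepatocyte markers was also highest in vehicle animal 5, but Apob, Plg, C3 and Tat were not highest there. Those genes stood at -3.58, -2.39, -0.83 and -0.59 in vehicle animal 5. Their highest values, in other rats, were -3.25, -2.04, -0.67 and -0.06. Relative to all rats, the 14 averaged 2.44 in vehicle animal 5, 0.86 in animal 3, 0.46 in animal 4 and -0.23 in animal 8. In the 8 hormone-treated rats the mean stood at -0.78 to -0.14. Apoa2, an apolipoprotein made in liver, was at 3.08, 0.43, -0.41 and -1.28 in these 4 vehicle rats and between -1.56 and -1.31 in the hormone-treated ones. At the other end, Fgb was under 0.1 intensity units in all 12 rats. Of 12 listed genes of intestinal epithelium 7 were measured, with a summed intensity of 3.41 to 4.74 with estradiol benzoate, 2.96 to 5.48 with testosterone and 3.95 to 15.1 with vehicle, highest in animal 5. Their mean level relative to all rats was -0.43 to 0.07, -0.60 to -0.16 and 0.10 to 0.69 in these groups. The brightest of the 7 in vehicle animal 5 was Fabp1, at 3.42, followed by Anpep at 2.02, and all others were below 0 there. Fabp1 was at 1.38, 0.11 and -3.91 in vehicle animals 3, 4 and 8, and between -6.02 and -1.98 in the hormone-treated rats. The vehicle rats stood in the same order for Fabp1 as for the hepatocyte marker mean. Fabp2 (-4.88) was also highest in vehicle animal 5. By contrast, Vil1 (-5.87), Muc2 (-7.86) and Slc5a1 (-2.55) were lowest there, and Cdh17 and Anpep were neither. Fabp2, Vil1 and Muc2 were under 0.1 intensity units in all 12 rats. The part of liver or gut RNA in the differences of the liver-restricted genes was not tested.

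Several other genes on the liver list did not have their highest level in vehicle animal 5. Gsta1, an alpha class glutathione transferase, stood at 2.71 ± 0.25, 2.61 ± 0.16 and 2.61 ± 0.17 with estradiol benzoate, testosterone and vehicle (SD, 4 rats each). Its close relative Gsta2 stood at 1.86 ± 0.13, 1.85 ± 0.13 and 1.88 ± 0.29. Vehicle animal 5 was in the upper part of the range for both. It had 2.81 for Gsta1, where all rats lay between 2.40 and 2.92. For Gsta2 it had 2.09, where all rats lay between 1.54 and 2.16. Whether probes of such near-identical copies share signal was not tested. Cyp2a1 and Cyp2a2, testosterone hydroxylases of rat liver, were lowest in vehicle animal 5, at -0.01 and -0.80. For Cyp3a23-3a1, a steroid-inducible P450, the probes disagreed: the brighter one lay between -0.43 and 0.05 in all rats, and the dimmer one at -1.59 in vehicle animal 5 and between -8.65 and -4.66 in the others. The dimmer probe gave -2.26 ± 0.90 and -3.05 ± 0.90, -1.28 and -2.06 without vehicle animal 5 and -0.43 each with the floor, and the brighter one -0.00 ± 0.11 and 0.07 ± 0.11.

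**Figure D4:**
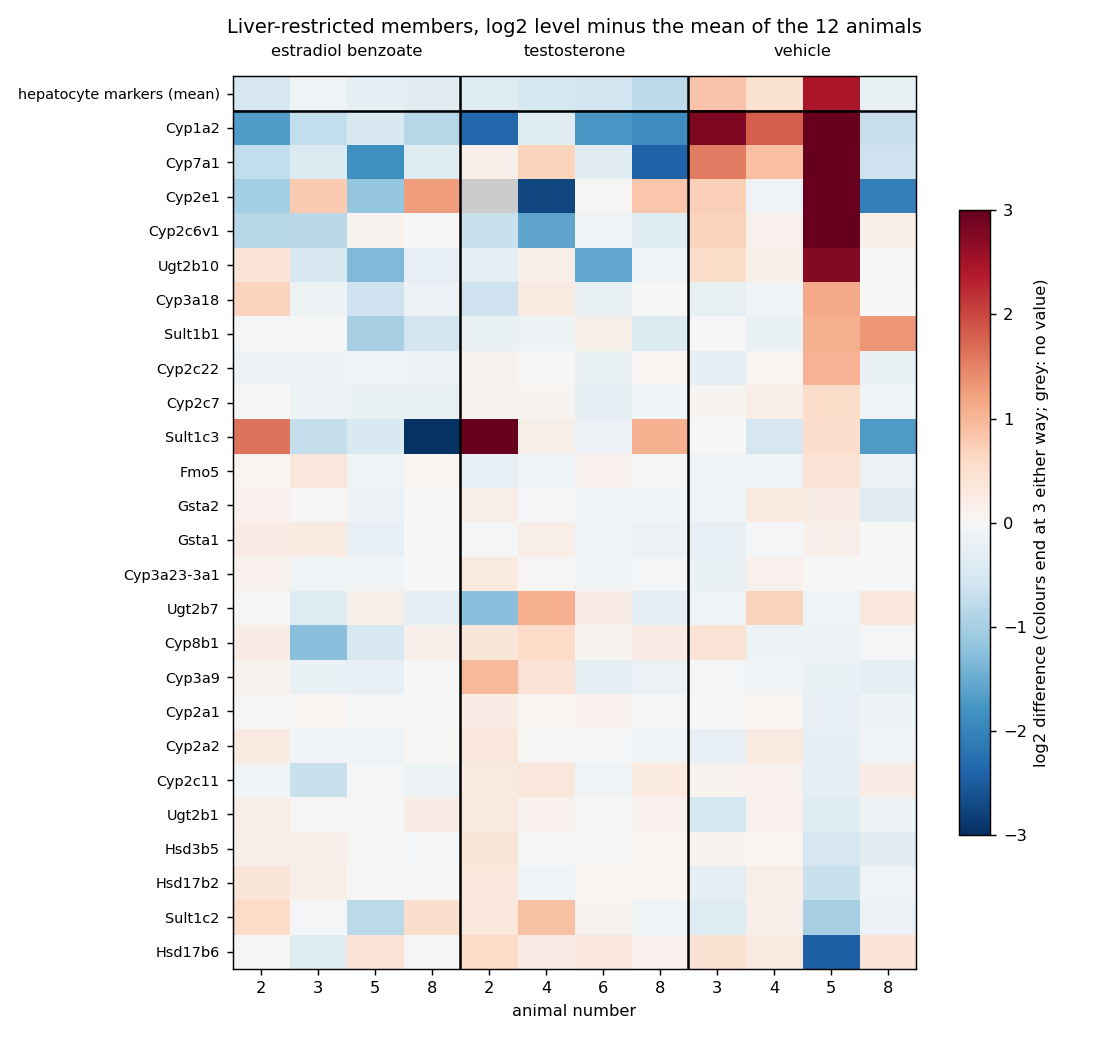
Log2 level of each of the 25 liver-restricted genes minus its mean over the 12 rats, with rats in columns by group and the mean of the 14 hepatocyte markers in the top row; grey marks a missing value and colours end at 3 either way. Vehicle animal 5 is darkest red for the hepatocyte markers (2.44) and for 5 genes at the top, and pale or blue for the genes at the bottom.

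The spread between rats also differed by class. The median SD within groups was 0.251 over the 81 genes, against 0.195 over all probes. It was 0.362 for liver-restricted, 0.213 for artery-expressed and 0.286 for low genes. The SD between duplicate arrays followed the same order, at a median of 0.201, 0.0917 and 0.177.

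Genes that work with these enzymes were read from a list of 79 reductases, epoxide hydrolases, cofactor suppliers, transporters and regulators, of which 45 were measured and 0 passed an adjusted p under 0.05 in any comparison. At an unadjusted p under 0.05 by limma, 4 of the 45 were higher and 4 lower in estradiol benzoate minus vehicle. The counts were 4 and 5 in testosterone minus vehicle, and 2 and 0 in estradiol benzoate minus testosterone. Of all probes, 6.77% were higher and 6.69% lower in estradiol benzoate minus vehicle. The shares were 6.62% and 7.43% in testosterone minus vehicle, and 2.41% and 1.71% in estradiol benzoate minus testosterone. Akr1c14, which reduces dihydrotestosterone to a weak androgen, had 1.66, 2.22, 1.83 and 2.23 with estradiol benzoate, 0.66, 0.54, 1.17 and 0.75 with testosterone, and -0.26, 0.40, 0.54 and 0.98 with vehicle. The estradiol benzoate rats lay above all others, with a log2 difference of 1.57 from vehicle (adjusted p = 0.0941, limma) and 1.20 from testosterone (adjusted p = 0.285, limma). Gsr, which renews glutathione, had -2.90, -3.19, -3.40 and -3.15 with estradiol benzoate, -2.75, -3.11, -2.88 and -3.27 with testosterone, and -4.12, -3.57, -3.80 and -3.78 with vehicle. Both hormone groups lay above vehicle, by 0.65 (adjusted p = 0.159, limma) and 0.82 (adjusted p = 0.109, limma), from a dim probe. Abcc1, an exporter of glutathione conjugates, differed by -0.64 and -0.95, with vehicle animal 5 (-0.78) inside both hormone groups.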

How the data were processed

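The deposited values are linear spot intensities of 24 one-colour CodeLink arrays, with 2 arrays of the same cRNA for each of 12 rats, per the labels. Array medians of the deposited intensities lay near 1, so the values appear to be scaled per array. Scanner software, background correction, the scaling step and any spot filter were not given in the sources used here. Intensities at or below 0 (327 in all) and blank spots (152 to 665 per array) were taken as missing. The deposited intensities were converted to log2, with no pseudocount or further scaling, and averaged over both arrays, so the rat is the replicate and n is 4 per group.

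Probes with values in at least 3 rats of each group (10228 of 10399) were fitted with limma 3.58.1 in R 4.3.3 (lmFit and eBayes, all 12 rats, no covariate, 9 residual and 2.51 prior degrees of freedom). Tests were two-sided, with Benjamini-Hochberg adjustment over all tested probes, with calls at an adjusted p under 0.05. The fit was tested on simulated data. A probe's gene came from the platform annotation: 7294 probes had 1 symbol, 88 several and 3017 none, and all 81 member genes were matched by gene ID with 0 changed symbols. The brightest tested probe stands for a gene.

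The members and gene lists were chosen with earlier results of these data known. Named were, per comparison, up to 8 members in each direction with the smallest unadjusted p, the 10 brightest members, the 8 brightest liver-restricted members, the member of each family with the smallest p of the F test, up to 5 partner genes per comparison and up to 4 of each marker list. Fmo1, Fmo5, Aldh1a1, Cyp1b1, Cyp17a1, Cyp19a1, Cyp21a1, Hsd17b1, Ugt1a6, Fgb and several genes of the marker lists were named after their values were seen. Alternatives covered quantile normalization, a floor of 0.1, leaving out the dimmest 25% of probes, a trended and robust prior, 1 array per rat, only the compared groups, the animal number as a block, and leaving out each rat. Leaving out vehicle animal 5 and estradiol benzoate animal 3 together was added after seeing the data. The number of rats limits the precision.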

Additional observations from a re-analysis of the deposited data

Results flagged for a closer look

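Among the 44 named members, 130 groups of 4 rats were examined for a rat whose gap to the nearest other, as a share of the group's range, exceeded Dixon's critical value for 4 values. This held in 7 groups, and chance gives about 1 in 20 groups. Vehicle animal 5 stood apart for Cyp2c6v1 at 2.40, against -0.85 to -0.32 in the other vehicle rats, and for Gstz1 at 2.50, against 2.26 to 2.29. Vehicle animal 8 stood apart for Hsd17b3 at -6.41, against -5.84 to -5.80. Estradiol benzoate animal 3 stood apart for Cyp2c11 at -3.31, against -2.81 to -2.72, and estradiol benzoate animal 5 for Cyp4a8 at -2.93, against -2.77 to -2.76. Testosterone animal 6 stood apart for Cyp2c11 at -2.75, against -2.37 to -2.32, and testosterone animal 2 for Gsta2 at 2.05, against 1.76 to 1.81.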

How the results depend on the processing

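No member passed an adjusted p under 0.05 in any comparison under any alternative run, including each of the 12 fits without 1 rat. The smallest adjusted p of Sult1a1 over the alternatives was 0.0633, for estradiol benzoate minus vehicle. Of 1170 values for 57 named differences under alternatives, 15 reversed and 1155 did not. The 1155 include values that became 0.00 with the floor and so had no direction, such as those of Sult2b1, Hsd17b3, Hsd17b7 and Cyp8b1. Member probes at an unadjusted p under 0.05 by limma were counted out of 86 in the main fit and out of 56 without dim probes. For estradiol benzoate minus vehicle they numbered 15, and 9 with a floor of 0.1 and 13 without dim probes. They numbered 18 for testosterone minus vehicle, and 11 with the floor, 10 without dim probes, 9 without vehicle animal 5 and estradiol benzoate animal 3, and 10 (without vehicle animal 5) to 20 without 1 rat. They numbered 6 for estradiol benzoate minus testosterone, and 3 without dim probes and 3 to 7 without 1 rat. For any difference they numbered 15, and 8 with the floor, 9 without dim probes and 9 without both animals. As a share of probes tested, members were above all probes in the main fit of every comparison. With the floor, members were below all probes in estradiol benzoate minus vehicle, testosterone minus vehicle and the any-difference test. Testosterone minus vehicle was also below without vehicle animal 5, without both animals and without testosterone animal 8. Estradiol benzoate minus testosterone was below without testosterone animal 2. The other settings stayed above. The floor sets all values under 0.1 equal, and the dim filter left 56 member probes. The cause of the shifts was not tested. The median of liver-restricted genes for estradiol benzoate minus vehicle (-0.21) was 0.00 with the floor, -0.00 without dim probes, -0.05 on the AA arrays, 0.03 without both animals, and -0.22 to 0.02 (without vehicle animal 5) without 1 rat. That of artery-expressed genes was 0.07 without both animals. With the animal number as a replicate block the liver-restricted median was -0.04, and 17, 12 and 8 member probes had an unadjusted p under 0.05 in the 3 pairs of groups, with 0 called. Same-numbered rats correlated in their deviations from -0.115 to 0.297, so the numbers are not shown to pair them. With that block, testosterone minus vehicle was -0.09 for Aldh1a2, -0.31 for Cyp26b1 and 0.13 for Gstt2. Reversed values were Cyp2e1 for estradiol benzoate minus vehicle, 0.44 without vehicle animal 5 and 0.17 without both animals (-1.39 to 0.44 without 1 rat), and its dimmer probe, 0.85 without vehicle animal 5, 0.19 and 0.38 without estradiol benzoate animals 2 and 5, and 0.56 without both animals (-0.83 to 0.85 without 1 rat). For testosterone minus vehicle that dimmer probe gave 0.22 without vehicle animal 5 and 0.22 without both animals (-1.47 to 0.22 without 1 rat). The dimmer Hsd11b2 probe (0.01) gave -0.03 with quantile normalization, -0.01 on the AB arrays, and -0.13, -0.05, -0.06 and -0.03 without vehicle animal 3 and testosterone animals 2, 4 and 6 (-0.13 to 0.16 without 1 rat). Cyp3a9 for estradiol benzoate minus testosterone gave 0.10 on the AA arrays. Signal over background limits the dim probes, since 15 member genes never reached 0.1 intensity units.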
